A study of Rattus norvegicus with 3 samples.

Results

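The peaks described here lie on rat chromosomes 10 and 12, the autosomes with the fewest called peaks per megabase (Mb) in chromatin immunoprecipitation followed by sequencing (ChIP-seq) of testicular germ cells. Members are all peaks on these chromosomes with whole-number positions and a width of 1 to 20000 bp, which gave 949 of the 33825 peaks in the series. Chromosome 10 held 715 of them, 89 from estrogen receptor alpha (ERα), 354 from estrogen receptor beta (ERβ) and 272 from mock. Chromosome 12 held 234, of which 43 were ERα, 98 ERβ and 93 mock peaks. The cells came from adult rats of the Holtzman strain aged 75 to 90 days, and no treatment is listed for any group. Germ cells were enriched by lysing interstitial cells and filtering out Sertoli cells through nylon mesh, so other testis cells can remain, and whether animals were pooled is not stated. Peak lists hold no expression values, so the cell type could not be checked against markers. One library was made with an ERα antibody (Millipore), another with an ERβ antibody (Sigma) and the third with anti-rabbit immunoglobulin G (IgG) as a mock immunoprecipitation. With 1 library per antibody, no value carries a replicate error, each test compares these lists and not the antibodies as conditions, and the intervals cover counting error only. The read depth behind the lists is unknown, so how far a count depends on depth was not tested.

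Estrogen receptors are nuclear receptors that bind DNA, often at estrogen response elements, and switch target genes on or off when an estrogen is bound. The adult testis makes estrogens, and both receptors have been studied for their part in sperm production. Peaks of a mock library mark places where reads pile up without a receptor antibody, so a receptor peak is read beside the mock list. Positions are given as in the lists. Scaffold names in the lists are those of the Rnor_6.0 assembly, and no sequence, gene or repeat of that assembly was used here.

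Both chromosomes were chosen by their measured number of peaks per Mb, and chromosome 10 also by its ERβ excess, so these values are given as a description with no test. On chromosome 10, whose peaks reach to position 112577622, ERα had 0.791 peaks per Mb, ERβ 3.14 and mock 2.42. On chromosome 12, whose peaks reach to position 52494333, ERα had 0.819, ERβ 1.87 and mock 1.77. The next sparsest autosomes had 1.41 ERα peaks per Mb on chromosome 5, 3.84 ERβ peaks on chromosome 8 and 4.62 mock peaks on chromosome 19. The 2 chromosomes were sparse in different ways. On chromosome 12 all 3 lists were densest in the first 5 Mb, which held 58.1% of ERα, 36.7% of ERβ and 48.4% of mock peaks. On chromosome 10 peaks were spread more evenly, with the fullest stretch of each list between 22 and 29 Mb.

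Chromosome 10 was cut into 113 windows of 1 Mb, with each peak placed by its midpoint. ERα peaks were present in 54 windows, and in 33 of those there was a single peak. The 59 windows without an ERα peak made up 52.2% (95% exact binomial interval 42.6 to 61.7), against 29.5% of all autosome windows. ERβ was absent from 14 windows, or 12.4% (6.94 to 19.9), against 7.5% over all autosomes. Mock was absent from 23 windows, or 20.4% (13.4 to 29.0), against 10.4% over all autosomes. All 3 lists had a peak in 45 windows (39.8%), and 5 windows had none at all (4.42%). On the 18 autosomes other than 10 and 12, all 3 lists were present in 67.5% of windows.

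Chromosome 10 had no single window of very many peaks. The highest window counts were 5 ERα, 8 ERβ and 11 mock peaks, whereas the same maxima on the other 18 autosomes were 56, 56 and 55. The 5 fullest windows held 23.6% of the ERα peaks, 10.5% of the ERβ peaks and 18.01% of the mock peaks of the chromosome. ERα was fullest in the windows from 39000001 and from 62000001. These held 5 ERα, 6 ERβ and 5 mock peaks, and 5 ERα, 6 ERβ and 6 mock peaks. ERβ was fullest from 22000001, with 8 ERβ beside 2 ERα and 6 mock peaks, and from 79000001, with 8 beside 2 and 10. Mock was fullest from 24000001, with 11 mock beside 1 ERα and 6 ERβ peaks, and had 10 in each of 3 windows. These began at 25000001, beside 1 ERα and 7 ERβ peaks, at 27000001, beside 2 and 2, and at 79000001, which was also a fullest ERβ window. The fullest run of 5 windows was 24000001 to 29000000 for both ERα, with 11 peaks, and mock, with 46, while for ERβ it was 22000001 to 27000000, with 35. These 46 mock and 35 ERβ peaks are close to the 45 mock and 36 ERβ peaks in the first 5 Mb of chromosome 12, where ERα had 25. Chaining peaks of any list that lay within 10 kb of each other gave 0 clusters of 5 or more peaks on chromosome 10.

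**Figure D1:**
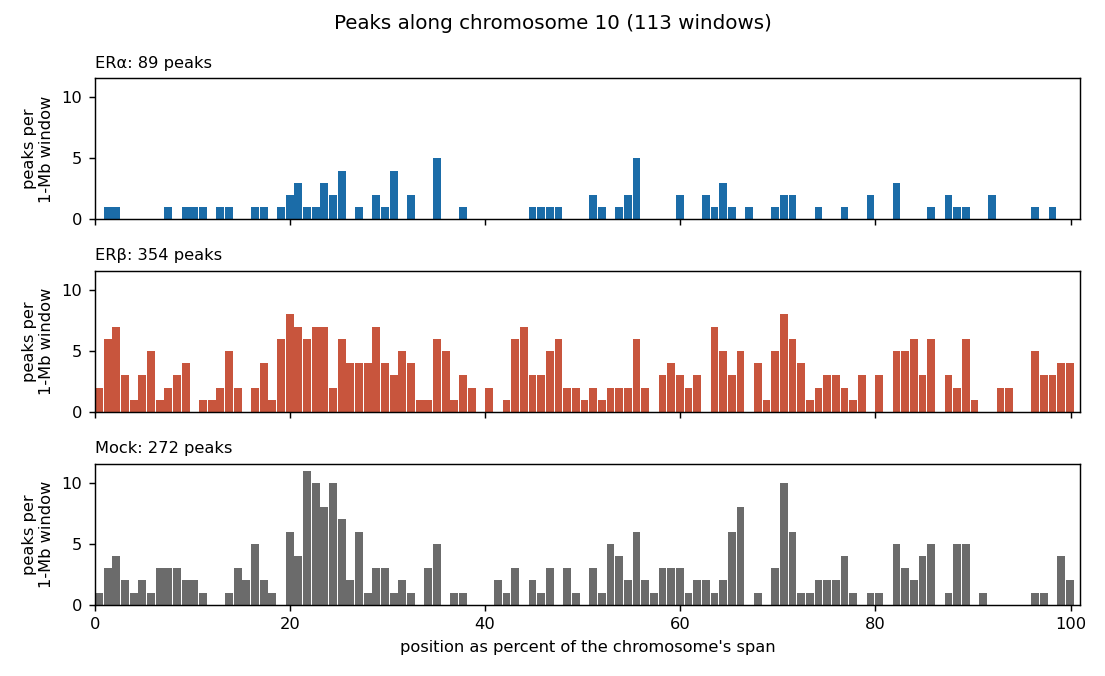
Peaks per 1-Mb window along chromosome 10, one panel per list on a common vertical axis, with position as percent of the span from the first base to the furthest peak end. ERβ bars stand in 99 of 113 windows with a maximum of 8, mock bars rise to 11 between about 20 and 25 percent, and ERα bars are missing from 59 windows.

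The longest stretches without peaks differed between the lists. ERα lacked peaks over 8.07 Mb from 42034399 to 50105954, where 22 ERβ and 8 mock peaks lay. It was also absent over 5.21 Mb from 2879520 to 8089675 and over 4.88 Mb from 62952554 to 67836635. These held 14 ERβ and 9 mock peaks, and 11 ERβ and 12 mock peaks. The longest stretch without ERβ was 2.80 Mb, from 101746762 to 104545113, and the next were 2.52 Mb from 105664136 to 108182881 and 1.93 Mb from 74532998 to 76458591. Mock lacked peaks over 6.14 Mb from 102815611 to 108959006, where 3 ERα and 9 ERβ peaks lay, and over 3.08 Mb from 42925632 to 46006746, which held 4 ERβ peaks. Its next was 2.83 Mb from 12976888 to 15810994, with 7 ERβ peaks and 1 ERα peak. The longest stretch without a peak of any list was the 2.52 Mb from 105664136, inside the long mock gap. The last 10% of the span, from 101319860, held few peaks of each list (24 of ERβ, 9 of mock and 4 of ERα), the lowest count of any 10% segment for ERβ and mock and equal to the lowest for ERα.

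The ERβ list was the one in which chromosome 10 was least depleted. It held 2.78% of all ERβ peaks (95% exact binomial interval 2.50 to 3.08), 1.73% of mock peaks (1.53 to 1.94) and 1.66% of ERα peaks (1.34 to 2.04). The ratio of the ERβ to the mock share was 1.61, first of 21 chromosomes, followed by chromosome 12 with 1.30. The ratio of the ERα to the mock share on chromosome 10 was 0.964. To follow it along the chromosome, mock counts were multiplied by 0.808, the ratio of the lengths of the ERβ and mock lists. The 272 mock peaks then stand for 219.8 peaks, and ERβ had 134.2 more.

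The ERβ excess was spread over most of chromosome 10 in small steps. ERβ exceeded scaled mock in 80 windows and fell short in 26, and the other 7 had neither list. The 80 windows are 70.8% of 113, the highest share of any chromosome, against 52.5% of all autosome windows. The windows above scaled mock summed to 170.7 peaks and those below to -36.6. The 5 windows of largest excess held 17.7% of the sum above, and 15 windows were needed to reach the 50% mark of the net excess. These 5 windows began at 49000001 with 7 ERβ and 0 mock peaks, at 71000001 with 7 and 1, at 21000001 with 6 and 0, at 53000001 with 6 and 0, and at 40000001 with 5 and 0. The ERβ peaks in them had scores from 30.09 to 42.43, beside a median of 34.43 over the whole ERβ list (the score is the authors', with no unit in the lists). These windows held 0 or 1 ERα peak each. Without these 5 windows the ratio of shares was 1.48. At the other end stood the windows from 27000001, with 2 ERβ and 10 mock peaks, and from 24000001, with 6 and 11. Most of the excess came from windows where both lists had peaks: 83 such windows held 309 ERβ and 261 mock peaks. A further 16 windows had 45 ERβ peaks and no mock peak, and 7 windows had 11 mock peaks and no ERβ peak.

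In 10 segments of equal length, ERβ stood above scaled mock in 9. No segment held more than 17.9% of the net excess. The ratio was highest in segment 10, at the far end, with 24 ERβ and 9 mock peaks (3.30 after scaling), and in segment 5, with 37 and 16 (2.86). Segment 4 followed, with 32 and 14 (2.83). It was lowest in segment 6, with 25 and 32 (0.967), and in segment 3, with 61 and 68 (1.11), where both lists had their highest counts. ERβ counts per segment ran from 24 to 61 and mock counts from 9 to 68, so ERβ was the more even of these lists. Over the 113 windows the variance of the counts was 1.51 times the mean for ERβ, 2.43 times for mock and 1.51 times for ERα. Window counts of ERβ and mock had a Pearson r of 0.498 and a Spearman rho of 0.474 over the 113 windows. ERα with mock gave r = 0.416, and ERα with ERβ gave r = 0.388. These windows are neighbours on 1 chromosome of the same libraries, and the values are descriptive.

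**Figure D2:**
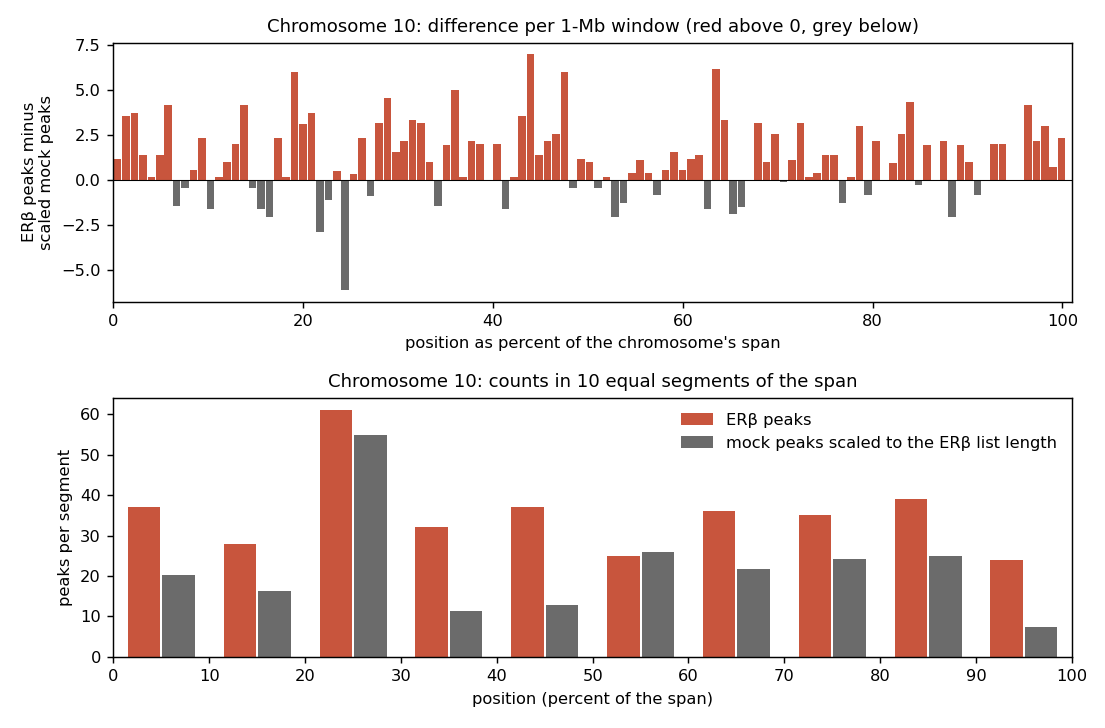
Upper panel, ERβ peaks minus mock peaks scaled to the length of the ERβ list in each 1-Mb window of chromosome 10, against position as percent of the span; lower panel, both counts in 10 segments of equal length. Red bars above 0 fill 80 windows along the whole length with a maximum of 7, and in the lower panel ERβ is below scaled mock in segment 6 alone.

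Chromosome 10 had no very high score in any list, and in this it was not alone. Scores ran from 34.87 to 72.38 for ERα, from 30.01 to 89.97 for ERβ and from 30.05 to 137.71 for mock, while the highest scores on the other autosomes had medians of 740, 650 and 563. Chromosome 11 had lower maxima in all 3 lists, at 56.64, 79.53 and 77.35, with 2.44, 6.30 and 8.69 peaks per Mb. A score of 50 or more was reached by 3 of 89 ERα peaks (3.37%), 4 of 354 ERβ peaks (1.13%) and 16 of 272 mock peaks (5.88%), and a score of 100 by a single mock peak. Over the whole lists the shares at 50 or more were 19.4%, 7.92% and 8.06%. The ERα and ERβ shares on chromosome 10 were the lowest of the 21 chromosomes. The mock share was not, with lower shares on several other autosomes, such as chromosome 5 (3.27%). Within each list, the share of chromosome 10 peaks above the list's own median score was compared with the remaining chromosomes by a two-sided Fisher's exact test, adjusted by Benjamini-Hochberg over 21 chromosomes and 3 lists. It was lower for ERβ, with 147 of 354 peaks (41.5%) against 50.1% elsewhere (odds ratio 0.707, 0.567 to 0.881, two-sided Fisher's exact test with adjusted p = 0.0115). In that list 23.8% of chromosomes were called lower and 19% higher. With ERβ peaks within 10 kb counted once, this difference did not pass (42.9% against 49.4%, odds ratio 0.768, Fisher's exact test, adjusted p = 0.200). ERα had 37.1% against 49.8% (odds ratio 0.595, 0.374 to 0.935, Fisher's exact test, adjusted p = 0.0534) and mock 45.2% against 49.95% (odds ratio 0.827, 0.645 to 1.06, Fisher's exact test, adjusted p = 0.235), and neither passed. For ERα 19% of chromosomes were called lower and 14.3% higher, and for mock 9.52% lower and 9.52% higher. In the upper 25% by score, ERα passed with 5.62% of its chromosome 10 peaks against 24.9% (Fisher's exact test, adjusted p = 1.98e-05) and ERβ with 14.7% against 25.05% (odds ratio 0.515, adjusted p = 2.14e-05), while mock with 19.9% against 24.9% did not (adjusted p = 0.0840).

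The ERβ excess on chromosome 10 was smallest among the strongest peaks. With each list cut into 5 classes of equal size by its own score, chromosome 10 held 3.30% of the lowest ERβ class and 1.91% of the lowest mock class, a ratio of 1.73. The ratios in the next 3 classes were 1.58, 1.76 and 1.67. In the highest class it was 1.18, from 38 ERβ peaks (1.49%) and 40 mock peaks (1.27%). ERα was scarcest in its highest class, where 3 of 1070 peaks (0.280%) lay on chromosome 10, and it had between 1.59% and 2.43% in the lower classes. At a score of 50 or more the ratio of the ERβ to the mock share was 0.315, from 4 and 16 peaks. Whether equal scores stand for equal signal in different lists is unknown.

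**Figure D3:**
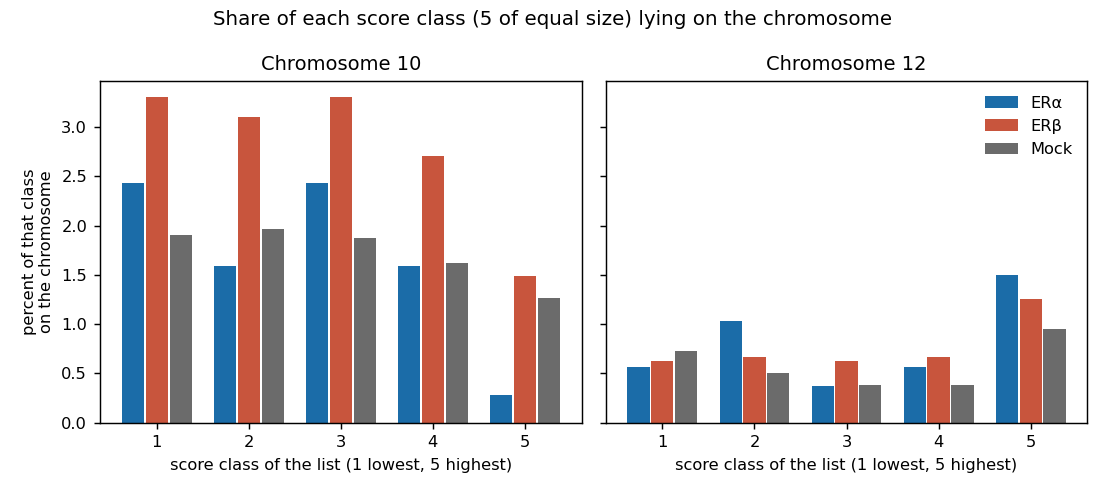
Percent of each of 5 equal score classes of a list, by that list's own score, that lies on chromosome 10 (left) or chromosome 12 (right), with 1 bar per list. On chromosome 10 the ERβ bar is above mock in every class and nearest to it in the highest, and on chromosome 12 the bars of all lists are tallest in the highest class.

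Chromosome 10 had typical median widths but no very wide peak. ERα peaks had a median width of 567 bp, ERβ peaks of 554 bp and mock peaks of 561 bp, beside 576, 558 and 568 bp over the whole lists, and the widest peaks were 802, 913 and 1047 bp, the smallest maximum of the 21 chromosomes in each list. Compared with the remaining chromosomes by Fisher's exact test, the share wider than the list's median did not pass for ERα (42.7%, odds ratio 0.744, 0.474 to 1.16, adjusted p = 0.523), ERβ (46.9%, 0.903, 0.726 to 1.12, adjusted p = 0.629) or mock (43.0%, 0.764, 0.595 to 0.980, adjusted p = 0.225). By this rule 4.76% of chromosomes were called higher for ERα, 4.76% for ERβ and 0 for mock, and 0 were called lower. In the upper 25% by width, ERα (12.4%, Fisher's exact test, adjusted p = 0.0251) and mock (16.5%, adjusted p = 0.00819) had fewer wide peaks. Peaks covered 0.0447% of the span for ERα, 0.175% for ERβ and 0.136% for mock.

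Almost nothing on chromosome 10 was called in more than 1 list. The 715 peaks merged into 708 loci, of which 6 (0.847%) held peaks of several lists. A single locus was called in all 3, at 15810728 to 15811493, and it carried the highest ERα score of the chromosome (72.38) and the highest mock score (137.71), with an ERβ score of 52.62. ERα and mock shared 1 more locus, at 89905080 to 89905614, with scores of 37.98 and 42. ERβ and mock shared 4. They lay at 92724582 to 92725719, with scores of 39.08 and 69.16, at 492876 to 493602 with 33.76 and 47.01, at 100334152 to 100335073 with 32.01 and 56.46, and at 96839719 to 96840642 with 42.19 and 31.12. No locus was called by both receptors without mock. The other 87 ERα, 349 ERβ and 266 mock peaks touched no other list (97.8%, 98.6% and 97.8%). This was common elsewhere too, with medians of 83.7%, 91.8% and 93.0% on the other 18 autosomes and maxima of 94.3%, 96.4% and 97.5%.

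Of the 3 highest peaks of each list on chromosome 10, those outside the locus at 15810728 and the mock peak at 92724814 touched no other list. The highest ERβ peak, at 112485119 to 112485928 with a score of 89.97, lay close to the furthest called position and 1576 bp from the nearest mock peak. The next ERβ peak, at 22641681 to 22642320, scored 58.23, with the nearest mock peak 43202 bp and the nearest ERα peak 94243 bp away. The second ERα peak, at 28600803 to 28601234, scored 62.4 and lay 74121 bp from mock, and the third, at 22546768 to 22547437, scored 53.71 and lay 22178 bp from mock. The third mock peak, at 32946665 to 32947416, scored 61.69 and lay 1145 bp from an ERβ peak. The highest ERβ and the third mock peak thus had a peak of another list nearby without touching it.

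Chromosome 12 had a different form. Its first 5 Mb held 25 of 43 ERα peaks (58.1%), 36 of 98 ERβ peaks (36.7%) and 45 of 93 mock peaks (48.4%). In that stretch the densities were 5, 7.2 and 9 peaks per Mb, and beyond it they were 0.379, 1.31 and 1.01. The window from position 1 held 10 ERα, 15 ERβ and 27 mock peaks, and the window from 3000001 held 9, 14 and 13. These were the 2 fullest windows in each list. The window just before the latter, from 2000001, held 1 ERα peak and no other. Further along, ERβ reached 8 peaks in the window from 19000001, beside 2 ERα and 3 mock peaks, and 6 in that from 21000001, beside 2 and 6.

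Of the 53 windows of chromosome 12, ERα was absent from 34 (64.2%, exact binomial interval 49.8 to 76.9), ERβ from 18 (34.0%, 21.5 to 48.3) and mock from 25 (47.2%, 33.3 to 61.4). No list had a peak in 10 windows (18.9%), and all 3 had one in 14 (26.4%). The longest stretch without ERα was 11.9 Mb, from 27718169 to 39580420, where 12 ERβ and 12 mock peaks lay. Next came 6.58 Mb from 45079066 to 51663144 and 5.73 Mb from 5553785 to 11282207. ERβ was absent over 4.24 Mb from 44141237 to 48383848, over 3.79 Mb from 34194109 to 37981951 and over 3.44 Mb from 48384331 to 51821252. Mock was absent over 6.11 Mb from 40559253 to 46672961, over 5.81 Mb from 46673441 to 52484600 and over 5.77 Mb from 12247746 to 18013599. These 3 stretches held 5, 4 and 6 ERβ peaks. No list had a peak over 3.28 Mb from 48384331 to 51663144. The last 20% of the span, from 41995467, held 4 ERα, 8 ERβ and 2 mock peaks.

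**Figure D4:**
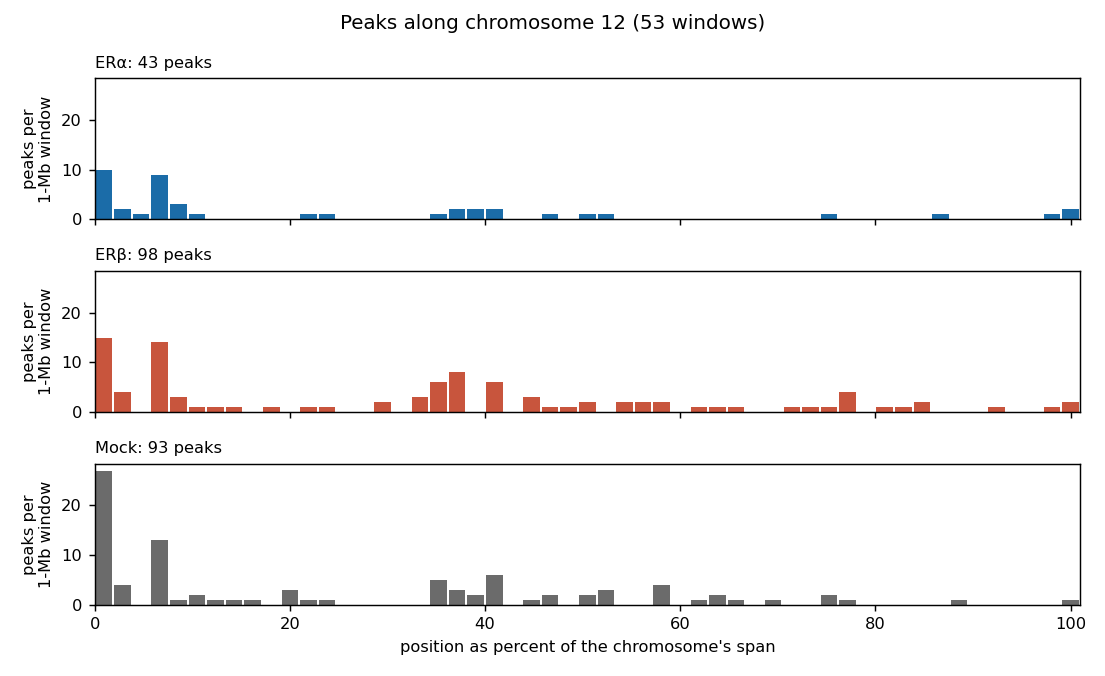
Peaks per 1-Mb window along chromosome 12, one panel per list on a common vertical axis, with position as percent of the span. The windows from 1 and from 3000001 stand above the rest in all 3 lists, at 10 and 9 for ERα, 15 and 14 for ERβ and 27 and 13 for mock.

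Part of the crowded start of chromosome 12 lay in tight clusters. Chaining peaks of any list within 10 kb gave 8 clusters of 5 or more peaks on this chromosome, 6 of them in the first 5 Mb. The largest spanned 29.1 kb from 3340486 to 3369617 and held 6 ERα, 8 ERβ and 5 mock peaks with scores from 36.51 to 1040.84. A cluster from 88408 to 108387 held 8 mock peaks beside 2 ERα and 2 ERβ peaks, with no score above 59.26. The shortest, 3.94 kb from 1508642 to 1512577, held 2 peaks of each list with scores from 197.02 to 2569.91. Counting peaks of 1 list within 10 kb once removed 20.9% of ERα, 20.4% of ERβ and 23.7% of mock peaks of chromosome 12, and 2.25%, 5.08% and 5.88% on chromosome 10. On the other 18 autosomes the medians of this share were 11.96%, 11.8% and 16.4%. The minima were 3.67%, 6.17% and 8.97%, and the maxima 34.4%, 25.4% and 25.1%, above the values of chromosome 12.

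The 3 highest peaks of each list on chromosome 12 lay at loci called in all 3 lists. The 234 peaks merged into 190 loci, of which 27 (14.2%) held several lists, and 24 of these 27 (88.9%) began within the first 5 Mb. All 3 lists met at 14 loci. The highest, at 1508642 to 1511273, had scores of 2271 for ERα, 2570 for ERβ and 2177 for mock. Next by rank sum came 3350058 to 3353922, with 1041, 592 and 965, and 3353946 to 3357707, with 556, 896 and 534. These adjoin each other. The locus from 465999 to 466988 had 578, 503 and 535, and that from 479861 to 480848 had 314, 287 and 251. One of the 14 lay beyond the first 5 Mb, at 5552835 to 5553784, with 106.7 for ERα, 66.03 for ERβ and 70.82 for mock.

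Other sharing on chromosome 12 was mostly with mock. ERβ and mock met at 9 loci without ERα, led by 3288091 to 3288472 with scores of 67.95 and 59.71 and by 40143 to 41151 with 55.51 and 55.05. ERα and mock met at 3 loci without ERβ, led by 265332 to 265810 with 65.4 and 55.13. Both receptors met without mock at 1 locus, 3365573 to 3366334, with 42.82 for ERα and 36.51 for ERβ. It lay 814 bp from a mock peak, inside the largest cluster. The other 24 ERα, 73 ERβ and 66 mock peaks touched no other list (55.8%, 74.5% and 71.0%). The medians of this share on the other 18 autosomes were 83.7%, 91.8% and 93.0%, and the minima 51.4%, 75.5% and 77.2%. The ERα share of chromosome 12 was thus not the lowest. Within the first 5 Mb, 17 of 25 ERα peaks (68.0%, exact binomial interval 46.5 to 85.1) and 21 of 36 ERβ peaks (58.3%, 40.8 to 74.5) touched mock. Beyond it, 1 of 18 ERα peaks (5.56%, 0.141 to 27.3) and 3 of 62 ERβ peaks (4.84%, 1.01 to 13.5) did.

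Of peaks with a score of 50 or more on chromosome 12, 15 of 16 ERα peaks (93.8%) and 17 of 20 ERβ peaks (85.0%) touched mock, and 16 of 22 mock peaks (72.7%) touched ERβ. At this limit 13 of 16 ERα peaks touched ERβ, and 14 of 20 ERβ and 14 of 22 mock peaks touched ERα. These shares are not given here for other chromosomes. In the upper 50% of each list by score, ERα peaks touched mock at 75% on chromosome 12 (18 of 24) and at 27.1% elsewhere. Below a score of 50 they touched mock at 11.1% on chromosome 12 (3 of 27) and at 6.55% elsewhere. The latter difference did not pass (Fisher's exact test, adjusted p = 0.503).

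Scores of chromosome 12 followed the same division. In the first 5 Mb the median score was 55.81 for ERα, 49.39 for ERβ and 45.09 for mock, and beyond it 36.8, 33.9 and 32.9. Of the peaks with a score of 50 or more, 15 of 16 ERα, 17 of 20 ERβ and 19 of 22 mock peaks lay in the first 5 Mb. The share above the list's median score did not pass against the remaining chromosomes in any list. It was 55.8% for ERα (odds ratio 1.29, 0.675 to 2.50, Fisher's exact test, adjusted p = 0.551), 59.2% for ERβ (1.46, 0.959 to 2.25, adjusted p = 0.153) and 52.7% for mock (1.12, 0.729 to 1.72, adjusted p = 0.705). With peaks within 10 kb counted once, it was 47.1% for ERα against 45.1% elsewhere, 53.8% for ERβ against 49.2%, and 47.9% for mock against 50.7%. In the upper 25% by score all 3 passed, with 41.9% of ERα, 37.8% of ERβ and 36.6% of mock peaks (Fisher's exact test, adjusted p = 0.0247, 0.0118 and 0.0238). Elsewhere these shares were 24.5%, 24.7% and 24.8%. The test treats clustered peaks as independent, and the upper 25% was not repeated with peaks within 10 kb counted once. By these counts chromosome 12 held many ordinary peaks and a group of very strong ones. Its median widths were 588, 553 and 574 bp, and its widest peaks 3115, 3762 and 3844 bp. The share wider than the list's median did not pass for ERα (odds ratio 1.16, 0.605 to 2.22, Fisher's exact test, adjusted p = 0.910), ERβ (0.870, 0.570 to 1.32, adjusted p = 0.830) or mock (1.29, 0.840 to 2.00, adjusted p = 0.548).

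Sharing was tested for each chromosome against the remaining ones in all 6 ordered pairs of lists (two-sided Fisher's exact test, Benjamini-Hochberg adjustment over 126 tests). Overlap between lists did not choose the chromosomes, but low density did, and a sparser second list leaves fewer peaks to touch. The tests do not separate sharing from density. Odds ratios are given with their 95% intervals. On chromosome 10 all 6 shares were lower than elsewhere and were the lowest of the 21 chromosomes. Of ERα peaks, 1.12% touched ERβ (1 of 89, elsewhere 17.5%, odds ratio 0.0538, 0.00134 to 0.308, Fisher's exact test, adjusted p = 3.20e-06; 52.4% of chromosomes were called lower) and 2.25% touched mock (2 of 89, elsewhere 17.97%, odds ratio 0.105, 0.0125 to 0.392, adjusted p = 1.77e-05; 47.6% called lower). Of ERβ peaks, 0.282% touched ERα (1 of 354, elsewhere 7.42%, odds ratio 0.0354, 0.000892 to 0.199, Fisher's exact test, adjusted p = 6.53e-10; 47.6% called lower) and 1.41% touched mock (5 of 354, elsewhere 9.44%, odds ratio 0.138, 0.0443 to 0.325, adjusted p = 4.78e-09; 52.4% called lower). Of mock peaks, 0.735% touched ERα (2 of 272, elsewhere 6.27%, odds ratio 0.111, 0.0133 to 0.405, Fisher's exact test, adjusted p = 1.99e-05; 42.9% called lower) and 1.84% touched ERβ (5 of 272, elsewhere 7.60%, odds ratio 0.228, 0.0732 to 0.540, adjusted p = 0.000112; 42.9% called lower). Since about as many chromosomes were called lower as not, the call by itself does not set chromosome 10 apart. The test treats neighbouring peaks as independent. With peaks of 1 list within 10 kb counted once, both mock differences no longer passed Fisher's exact test (adjusted p = 0.0760 with ERα and 0.166 with ERβ).

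The low sharing on chromosome 10 was also seen among weak peaks, a subset chosen after the values were seen. Below a score of 50, 0 of 350 ERβ peaks touched ERα, which allows a share of up to 0.857%, against 2.80% elsewhere (Fisher's exact test, adjusted p = 0.00136). Of the same 350 peaks, 4 touched mock (1.14%), against 4.80% elsewhere (Fisher's exact test, adjusted p = 0.00266). Of 86 weak ERα peaks, 0 touched ERβ, which allows up to 3.49%, against 6.05% elsewhere (Fisher's exact test, adjusted p = 0.0266), and 1 touched mock, against 6.69%, which did not pass (adjusted p = 0.0930). The lower density of the second list moves with these shares, and its part in them was not tested.

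On chromosome 12 all 6 shares were higher than elsewhere. ERα peaks touched ERβ at 37.2% (16 of 43, odds ratio 2.89, 1.45 to 5.59, Fisher's exact test, adjusted p = 0.00250; 33.3% of chromosomes were called higher) and mock at 41.9% (18 of 43, odds ratio 3.39, 1.74 to 6.50, adjusted p = 0.000299; 28.6% called higher). ERβ peaks touched ERα at 16.3% (16 of 98, odds ratio 2.53, 1.38 to 4.39, Fisher's exact test, adjusted p = 0.00339; 33.3% called higher) and mock at 24.5% (24 of 98, odds ratio 3.24, 1.95 to 5.22, adjusted p = 1.39e-05; 38.1% called higher). Mock peaks touched ERα at 19.4% (18 of 93, odds ratio 3.70, 2.07 to 6.28, Fisher's exact test, adjusted p = 2.55e-05; 28.6% called higher) and ERβ at 24.7% (23 of 93, odds ratio 4.11, 2.44 to 6.70, adjusted p = 6.38e-07; 28.6% called higher). Both shares of ERβ with mock were the highest of the 21 chromosomes. None of the 6 held without the first 5 Mb, where the shares ran from 1.61% to 6.25% and all odds ratios were below 1, with adjusted p from 0.158 to 1 (Fisher's exact test). The shared peaks of chromosome 12 thus lay mostly in its first 5 Mb. The other chromosomes kept their dense stretches in this comparison, so these odds ratios compare unlike sets. With windows of 20 or more mock peaks left out on every chromosome, all 6 shares of chromosome 12 stayed higher. ERα then touched ERβ at 36.4% against 8.80% elsewhere, and mock touched ERβ at 21.2% against 4.16%. Of the 77 windows left out, 1 lay on chromosome 12. Its dense window from 3000001, with 13 mock peaks, stayed in, so these shares still include much of the first 5 Mb. Both the first 5 Mb and this window limit were chosen after the values were seen.

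**Figure D5:**
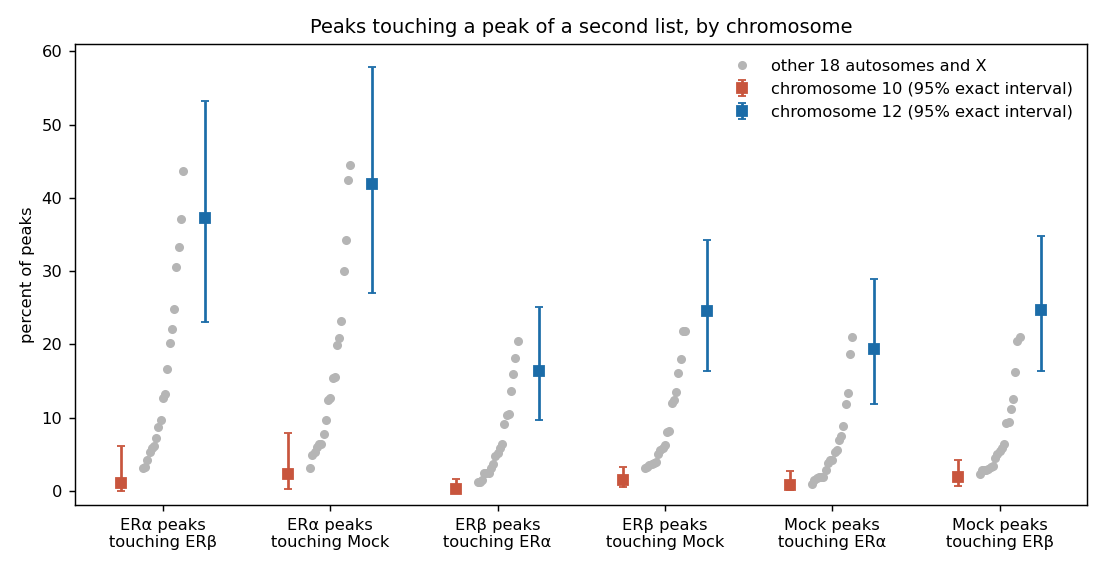
Percent of peaks touching a peak of a second list, for the 6 ordered pairs of lists; squares are chromosome 10 (red) and chromosome 12 (blue) with 95% exact binomial intervals, and grey dots are the other 18 autosomes and X. Chromosome 10 lies below all other chromosomes in each pair, between 0.282% and 2.25%, and chromosome 12 lies between 16.3% and 41.9%.

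Distances between lists, with touching peaks counted as 0, were longer on chromosome 10. The median distance from an ERβ peak to the nearest mock peak was 90.4 kb on chromosome 10, 39.2 kb on chromosome 12 and 32.7 kb on the other 18 autosomes. From an ERα peak to the nearest mock peak it was 77.8, 3.20 and 19.4 kb, and from ERα to ERβ 81.5, 4.73 and 29.9 kb. Within 10 kb of a mock peak lay 13.0% of ERβ peaks on chromosome 10, 41.8% on chromosome 12 and 28.6% on the other autosomes. Distances of this kind shorten as the second list grows denser, and they are given as a description. Window counts of the lists on chromosome 12 had Pearson r of 0.854 to 0.895 and Spearman rho of 0.393 to 0.610 over 53 windows. Without the first 5 Mb, r was 0.445 to 0.570 and rho 0.241 to 0.564 over 48 windows.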

How the data were processed

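Reads were aligned with Bowtie 1.2, per the submitters' processing notes. Each library has 1 list of peaks deposited by the authors, with position, a peak name beginning with MACS (a peak caller) and a score per peak; the deposited score has no stated unit and was tested only within its own list. Not given in the sources used here are the build, the caller's settings, its control and any duplicate removal, and depth is unknown. Members and analyses were chosen with earlier results of these data known.

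Starts were written 1-based. In the ERβ list 2 of 12730 lines with damaged positions were left out, none on chromosome 10 or 12. Peaks were shared when they overlapped by at least 1 bp, and counts on chromosomes 10 and 12 equalled those of bedtools 2.31.1. Windows of 1 Mb held peaks by midpoint. The span ran from the first base to the furthest peak end of any list. Shares carry 95% Clopper-Pearson intervals, and a count of 0 allows up to 3 counts. Fisher's exact tests with Benjamini-Hochberg adjustment at 0.05 compared each of 21 chromosomes (1 to 20 and X) with the rest, and were tested on simulated data. The simulation drew peaks independently at a share common to the remaining chromosomes, so it did not cover clustering or shares that vary between chromosomes. Alternatives were stricter or looser overlap, score subsets, thinning to 10 kb and other windows. Regions were named by fixed rules: the 3 highest peaks, 2 fullest windows and 3 longest empty stretches per list, the 5 windows of largest ERβ excess and the leading shared loci. Runs of 5 windows, clusters, the first 5 Mb, other single windows and chromosome 11 were chosen after their values were seen. Tools were scipy 1.17.1, numpy 2.4.6, matplotlib 3.10.9, pandas 2.3.3 and Python 3.11.15.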

Additional observations from a re-analysis of the deposited data

How the results depend on the processing

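Of 155 alternative values, 112 were counted as unchanged because they kept their side of the threshold or stayed within the interval of the reported value. Some of these turned direction without passing. Without its first 5 Mb, chromosome 12 had 22.2% of ERα peaks above the list's median score (odds ratio 0.292). For ERβ this was 46.8% (odds ratio 0.886) and for mock 33.3% (odds ratio 0.503), where the whole chromosome had odds ratios above 1. On chromosome 10 sharing stayed lower in every alternative run, and these no longer passed by Fisher's exact test: mock with ERα (0.781%) and with ERβ (1.95%) when peaks within 10 kb were counted once, mock with ERβ outside windows with 20 or more mock peaks (1.84%, adjusted p = 0.0893) and ERα with mock below a score of 50 (1.16%). On chromosome 12 without its first 5 Mb all directions turned, with the other chromosomes left whole. ERα then touched ERβ and mock at 5.56% each, ERβ touched ERα at 1.61% and mock at 4.84%, and mock touched ERα at 2.08% and ERβ at 6.25%. On the whole of chromosome 12, below a score of 50, ERα touched ERβ and mock at 11.1% each, ERβ touched mock at 8.97% and mock touched ERα at 5.63%, none of which passed, and ERβ touched ERα at 2.56%, an odds ratio below 1. Mock touching ERβ still passed, with 7 of 71 peaks (9.86%) against 3.79% elsewhere (odds ratio 2.78, Fisher's exact test, adjusted p = 0.0455).

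With peaks within 10 kb counted once, the ERβ score difference on chromosome 10 kept its direction but did not pass (42.9%, odds ratio 0.768). The upper 25% brought past the threshold ERα on chromosome 10 by score (5.62%) and width (12.4%), mock by width (16.5%), and on chromosome 12 by score ERα (41.9%), ERβ (37.8%) and mock (36.6%). In the upper 50% by score chromosome 10 held 1.24% of ERα and 2.31% of ERβ peaks, and with peaks within 10 kb counted once 1.957% of mock. Without its first 5 Mb, chromosome 12 held 0.338% of ERα, 0.488% of ERβ and 0.306% of mock. The ratio of the ERβ to the mock share on chromosome 10 reversed to 0.315 at a score of 50 or more. Because window size sets the counts, windows with ERβ above scaled mock were 56.2% at 500 kb and 80.7% at 2 Mb. Empty windows on chromosome 10 were 71.7% and 29.8% for ERα, 30.1% and 3.51% for ERβ, and 41.6% and 5.26% for mock at these sizes, and 6.14% for ERβ with windows shifted by 500 kb. On chromosome 12 they were 78.1% for ERα at 500 kb, 56.2% and 3.70% for ERβ, and 63.8% and 25.9% for mock. The score limit of 50 for sharing, the windows with 20 or more mock peaks and the first 5 Mb were chosen after seeing the data. With 1 list per antibody and unknown depth, counts on chromosome 12 are small and their intervals cover counting error only. No paired analysis was possible because each antibody has 1 library.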
